A study of Mus musculus with 28 samples.

Results

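Solute carriers are membrane proteins that move small molecules across the plasma membrane and the membranes of organelles. The genes described here are the 334 solute carrier genes that remain in the authors' expression table of the endothelial sort when 21 carriers are set aside, most of them known glucose, amino acid, vitamin, iron and organic anion carriers of the blood-brain barrier. They were chosen by symbol alone, as every gene named Slc followed by a family number, a letter and a member number, with no measured level in the rule. The table lists 18665 genes, and all 334 members were found in the count tables.

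The libraries came from the brains of PDGFRβ-CreERT2; Rosa-tdTomato mice, in which tamoxifen turns on the red protein tdTomato in cells that use the Pdgfrb promoter. Per the labels all mice carried these alleles, controls too, and received 2 mg of tamoxifen a day for 5 days. Brain metastases (BrM) grew after cancer cells were injected into the heart, either the breast line PyMT-BrM3 or the lung line Sv2T3-BrM1, and brains without tumor served as the control. From each brain, cells negative for CD45, CD11B and EPCAM were sorted, and CD31+ cells (endothelial) and tdTomato+ cells (mural) were collected. There were 5 CD31 libraries each of non-tumor brain, breast BrM and lung BrM, and 5, 4 and 4 PDGFRb libraries. In all, 28 libraries were made from 15 animals or pools, of which 13 gave both sorts. As models these groups have limits that the labels show: each tumor type is a single cell line, the names of 2 lung samples join 2 animal numbers, and tdTomato marks any cell that has used the Pdgfrb promoter, not pericytes alone.

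Endothelial cells of the brain form a barrier with few leaks, so that nutrients, ions and metals enter through carriers in their membranes. Pericytes and smooth muscle cells, the mural cells, wrap these vessels and have carriers of their own. Some carriers work in the plasma membrane (for amino acids, monocarboxylates, vitamins, zinc, phosphate), others in the inner mitochondrial membrane (the Slc25 family) or in the Golgi (the Slc35 family, which brings in activated sugars). The members were read in 14 classes by substrate, from 46 mitochondrial carriers and 45 for amino acids and peptides to 7 for nucleosides and nucleobases.

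A pair of promoters is shown. Slc30a1 encodes the zinc exporter ZnT1, a classic target of the metal-sensing factor MTF-1, and its level in 1 tumor library is read below beside those of other MTF-1 targets. Slc20a1 encodes the phosphate importer PiT1, one of the members that rose in the endothelial sort of both tumors, and its window was searched for the hypoxia element because Car9, a classic hypoxia gene, was also higher there. The sequences are the 250 bases before and 50 bases after the RefSeq start (GRCm38.p6), 5′ to 3′ on the gene's strand, and the capitals mark matches on either strand of TGCNCNC, the core of the metal response element, in Slc30a1 and of ACGTG, the core of the hypoxia response element, in Slc20a1.
Slc30a1, chr1:191906531-191906830, + strand: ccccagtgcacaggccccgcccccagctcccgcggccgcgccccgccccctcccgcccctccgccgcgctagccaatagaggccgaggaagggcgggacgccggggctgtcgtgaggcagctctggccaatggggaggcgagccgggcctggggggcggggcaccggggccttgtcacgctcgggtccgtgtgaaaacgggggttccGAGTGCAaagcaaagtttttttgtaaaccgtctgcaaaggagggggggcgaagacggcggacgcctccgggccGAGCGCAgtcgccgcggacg
Slc20a1, chr2:129198523-129198822, + strand: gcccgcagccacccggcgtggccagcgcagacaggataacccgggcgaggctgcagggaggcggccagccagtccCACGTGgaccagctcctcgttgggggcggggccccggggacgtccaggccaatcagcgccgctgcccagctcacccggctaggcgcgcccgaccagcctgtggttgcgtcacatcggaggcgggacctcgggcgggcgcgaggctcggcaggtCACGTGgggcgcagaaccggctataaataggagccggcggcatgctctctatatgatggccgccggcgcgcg
TGCNCNC matched 2 times in the Slc30a1 window and occurs in 51.0% of all 32851 promoters of this length. ACGTG matched 4 times in the Slc20a1 window, as both strands of 2 CACGTG palindromes (also the E-box core), and occurs in 19.6% of all promoters. The second annotated Slc20a1 start, chr2:129206846-129207145, held no match. A further motif, CTTTGNT (TCF), was searched in the windows of Slc1a1 and Slc26a10, which fell in the endothelial sort of both tumors. Neither window, not printed here, held a match, and CTTTGNT occurs in 18.6% of all promoters. Of the members, 258 had at least 1 promoter in the RefSeq table, 333 promoters in all, and 56.5% of these held TGCNCNC and 25.2% held ACGTG. A match is a description of letters and not evidence of binding.

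The libraries held 7.11 M to 23.93 M counts, so that 3 counts corresponded to 0.125 to 0.422 CPM, the unit of counts scaled to a common library total. Levels below are CPM with edgeR's TMM factors, differences are log2 fold changes ± standard error from edgeR's quasi-likelihood test, and a call means an adjusted p (Benjamini-Hochberg, over all genes tested) under 0.05. Endothelial markers summed to 3040 to 7780 CPM in the CD31 libraries and to at most 82.7 CPM in the PDGFRb libraries. Mural markers summed to 14300 to 38000 CPM in the non-tumor PDGFRb libraries and to 6180 to 22400 CPM in those of breast BrM. In 3 of the 4 PDGFRb libraries of lung BrM, Pdgfrb itself was at 34.0, 34.2 and 39.6 CPM against 436 CPM in the fourth, and the epithelial keratin Krt8 was at 2330 to 3790 CPM in all 4, so the label mural does not hold for those 3. Krt8 exceeded 100 CPM in 2 CD31 libraries of breast BrM and 3 of lung BrM, and the CD31 counts are also given without these. The PDGFRb library of breast BrM mouse 51950 had the fewest counts and 9189 genes detected. For non-tumor mouse 54135 the titles and the cell type labels of the pair of libraries are exchanged, and the titles, which match the marker levels, were followed. Dates in the column names, whose meaning is not given, never hold both tumors. Each breast library shares its date with non-tumor mouse 53680 or 54135. Of the lung libraries only 54957 and 56195-56520 share a date with controls, namely 56727 and 56740. Lung 51435, 51697 and 55169-70 and non-tumor 54132 have dates that hold no other state. With the date as a covariate, each tumor is therefore compared with controls only through the libraries that share a date.

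In every series of values the mice stand in 1 order. For CD31 the order was 53680, 54132, 54135, 56727 and 56740 in non-tumor brain, 51950, 52599, 52865, 53072 and 53142 in breast BrM, and 51435, 51697, 54957, 55169-70 and 56195-56520 in lung BrM. For PDGFRb it was the same without 53142 and 51697.

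Per length of transcript, the members of non-tumor CD31 libraries summed to 5140 ± 106 FPKM (SD, n = 5) and those of non-tumor PDGFRb libraries to 6990 ± 423 (SD, n = 5). FPKM scales fragments by transcript length and library size, so levels of different genes can be set side by side. Mitochondrial carriers made up 32.6% of the sum in CD31 cells and 40.1% in PDGFRb cells. The 5 highest members in CD31 cells were Slc25a5, the main ADP/ATP carrier of dividing and many other cells, at 587 FPKM, the sugar carrier Slc50a1 at 313, the mitochondrial phosphate carrier Slc25a3 at 286, the glutamate carrier Slc1a1 at 188 and the zinc importer Slc39a10 at 172. In PDGFRb cells they were Slc25a5 at 973 FPKM, the folate carrier Slc19a1 at 681, Slc25a3 at 596, the other major ADP/ATP carrier Slc25a4 at 401 and the amino acid carrier Slc38a11 at 337. Slc25a5 has near-identical copies elsewhere in the genome, so its estimated counts are uncertain. A mean of at least 10 FPKM was reached by 86 members in CD31 and 107 in PDGFRb non-tumor libraries. In CD31 cells 179 of the 334 members reached a mean of 1 CPM and 61 had no counts at all, against 220 and 29 in PDGFRb cells.

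The sorts of non-tumor brain were compared first, which asks which carriers are higher in which sort before any tumor. Of 260 members tested, 64 (24.6%) were higher in PDGFRb and 30 (11.5%) higher in CD31 cells, beside 17.4% and 10.5% (27.9% in all) of all 18548 genes tested, and the members' median log2 difference was 0.37 against 0.10 for all genes. When mouse 54135 was instead taken by its cell type label, no gene was called, members included, while 29 members had an unadjusted p under 0.05. Among the carriers for amino acids and peptides, 15 of 38 were higher in PDGFRb and 4 in CD31 cells. Of the neurotransmitter and osmolyte carriers 5 of 11 were higher in PDGFRb cells and none lower, and of the calcium and magnesium carriers 5 of 9 and none. Fibroblast markers, another cell type with Pdgfrb, summed to 573 to 1670 CPM in the non-tumor PDGFRb libraries and to 1.84 to 4.59 CPM in the CD31 libraries, where Lum was at 0, and 5 of 5 were called higher in PDGFRb cells. Values of PDGFRb cells are therefore those of the sort, and the part of fibroblasts in them was not tested.

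Slc19a1, the reduced folate carrier, stood highest in the PDGFRb sort, by FPKM, after Slc25a5. It measured 1190, 1340, 859, 1570 and 1290 CPM there, against a mean of 3.25 ± 0.491 CPM (SD, n = 5) in CD31 cells. The difference was 8.50 ± 0.91 (adjusted p = 5.4e-08). Slc6a13, a carrier for GABA and taurine known from the pial and vascular coverings, measured 199, 189, 103, 244 and 221 CPM in PDGFRb cells and 0.0534 ± 0.0543 CPM (SD, n = 5) in CD31 cells, a difference of 11.51 ± 1.7 (adjusted p = 5.8e-06). No library of one sort overlapped the other for either gene, as for 19.6% of all genes upward and 16.3% downward.

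The manganese exporter Slc30a10 measured 124, 209, 230, 243 and 189 CPM in PDGFRb cells and was 11.34 ± 1.4 higher there on the log2 scale (adjusted p = 1.2e-06). The insulin-responsive glucose carrier Slc2a4 measured 179, 137, 69.7, 115 and 144 CPM and was 9.34 ± 1.3 higher (adjusted p = 2.1e-06). The iodide carrier Slc5a5 measured 84.1, 123, 53.0, 67.6 and 65.1 CPM, where the CD31 libraries together held 2 counts, a ratio of 3940 with a 95% counting interval of 1090 to 32500. A counting interval is taken from counts pooled over a group and leaves out the spread between mice. All 3 were near 0 in every CD31 library, as the plot of carriers of the PDGFRb sort shows. Slc26a7, an anion exchanger, had no counts in the CD31 libraries and 3.47, 1.33, 6.44, 11.3 and 9.83 CPM in PDGFRb cells, at least 235-fold higher when set against 3 counts over the group.

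**Figure D1:**
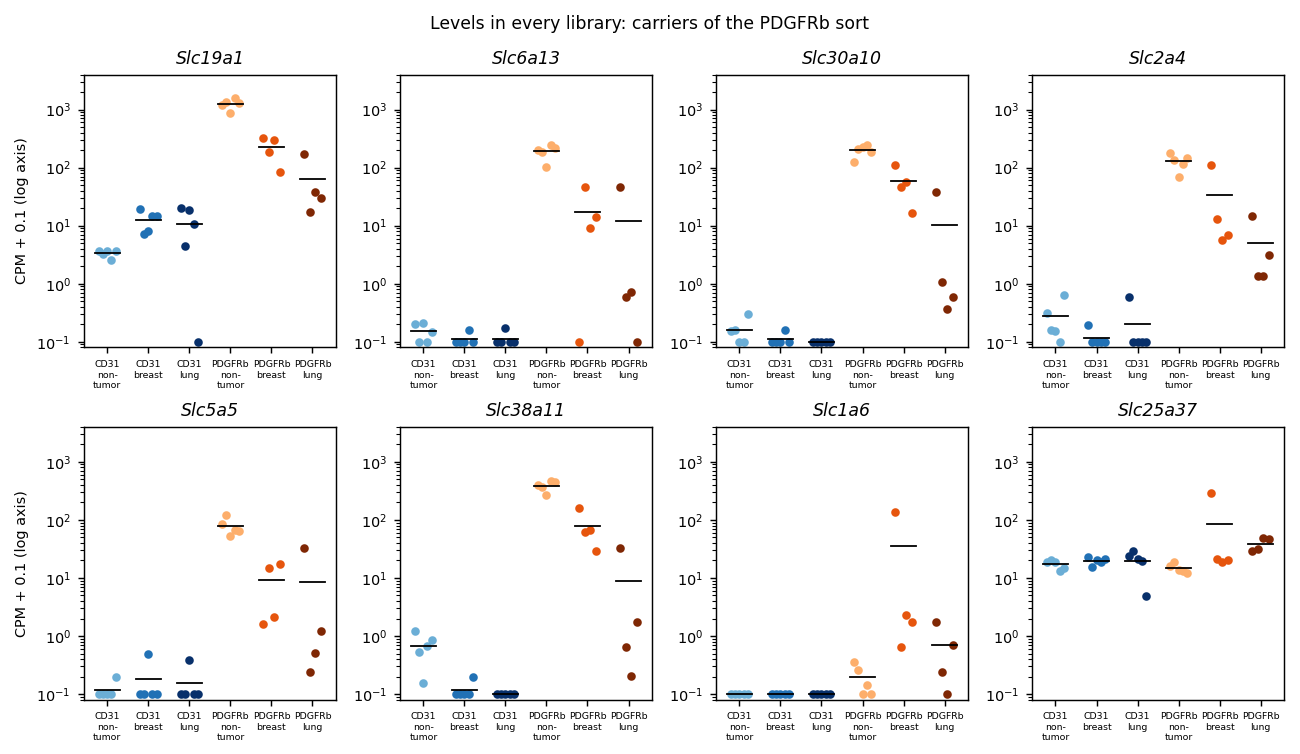
Levels of 8 carriers in every library (CPM plus 0.1, log axis), in the 6 groups of sort by state; each point is 1 library and each bar the group's mean. Slc19a1, Slc6a13, Slc30a10, Slc2a4, Slc5a5 and Slc38a11 are high in the non-tumor PDGFRb libraries and lower in most BrM libraries, and Slc1a6 and Slc25a37 are high in breast BrM in 1 library.

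Named members higher in CD31 cells include carriers of glutamate, riboflavin and metals, and the values of several by library are given below with the tumor groups. Differences are PDGFRb minus CD31. Slc1a1, the neuronal-type glutamate and cysteine carrier EAAT3, differed by -8.97 ± 0.96 (adjusted p = 5.1e-08). Slc35f2, a plasma membrane carrier placed in the nucleotide sugar family by sequence, differed by -8.28 ± 0.93 (adjusted p = 1.2e-07) and the riboflavin carrier Slc52a3 by -7.05 ± 0.73 (adjusted p = 2.8e-08). Slc16a4, of the monocarboxylate carrier family, differed by -6.56 ± 0.82 (adjusted p = 6.4e-07). Slc39a8, which imports zinc and manganese, differed by -6.32 ± 0.44 (adjusted p = 3e-11) and Slc39a10 by -4.22 ± 0.59 (adjusted p = 3.3e-06). Further differences toward CD31 were called for Slc26a10 (-5.30 ± 1.1, adjusted p = 0.00046), the lysosomal family member Slc66a2 (-3.25 ± 0.53, adjusted p = 2.6e-05), the copper importer Slc31a1 (-2.60 ± 0.24, adjusted p = 4.9e-09), Slc50a1 (-1.38 ± 0.20, adjusted p = 4.6e-06) and Slc35a4 (-0.43 ± 0.14, adjusted p = 0.024, a call lost in 9 of 18 alternatives).

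Other carriers of named roles were higher in PDGFRb cells. The phosphate carrier Slc20a2, whose loss in people calcifies small brain vessels, was at 138, 135, 111, 92.7 and 150 CPM there and 2.94 higher on the log2 scale than in CD31 cells. The glutamine carrier Slc1a5 was 4.80 ± 0.49 higher (adjusted p = 2.7e-08), the cystine carrier Slc7a11 6.10 higher (adjusted p = 0.0005), Slc22a17 2.12 ± 0.63 higher (adjusted p = 0.011), Slc25a3 0.81 ± 0.17 higher (adjusted p = 0.00061) and the nucleoside carrier Slc29a1 0.56 ± 0.18 higher (adjusted p = 0.022). The Slc29a1 call was lost in 7 of 18 alternatives. The Slc22a17 call was lost in 4, among them without mouse 54135 and with the sorts paired by mouse, with values down to 0.03. Slc7a10, a carrier that astrocytes use, was also called higher in PDGFRb cells, by 7.90 ± 1.5 (adjusted p = 0.00035). Its values ranged from 5.95 to 214 CPM over the 5 libraries. Astrocyte markers ranged from 150 to 2280 CPM in the same libraries and neuron markers from 0.69 to 409 CPM, both highest, as Slc7a10 was, in mouse 54135, and their part in this difference was not tested.

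In the CD31 sort, breast BrM was then compared with non-tumor brain, which asks what changes in tumor vessels. Of 206 members tested, 43 (20.9%) rose and 28 (13.6%) fell, beside 18.6% and 11.4% (30.1% in all) of all 14876 genes tested, with a median of 0.18 for the members and 0.04 for all genes. In lung BrM, set against the same 5 controls, 46 of 206 members (22.3%) rose and 27 (13.1%) fell, beside 20.4% and 14.5% (34.8% in all) of all genes, with medians of 0.13 and -0.00. The members' shares were thus near those of all genes in both tumors. Groups did not overlap for 19% of all genes upward and 18.6% downward in breast BrM, and for 13.6% and 16.8% in lung BrM. With the date as a covariate the members' counts were 21 and 17 in breast BrM, where 1353 and 938 of all genes were called in place of 2772 and 1701, and 16 and 5 in lung BrM, where 972 and 486 were called in place of 3032 and 2150. As few libraries share a date across groups, whether the date or fewer usable libraries lowered these counts was not tested. In a sort of bulk RNA, fewer cells of a type and less RNA per cell cannot be told apart.

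Epithelial markers moved with these changes: their sum was 0.115 to 6.65 CPM in the non-tumor CD31 libraries, 117 to 2660 CPM in breast BrM and 93.3 to 2280 CPM in lung BrM, with 5 of 6 and 6 of 6 of the markers called higher. Astrocyte markers summed to 102 to 175, 372 to 706 and 277 to 633 CPM, and 2 of 4 and 1 of 4 were called higher. Of the 6 endothelial markers, 1 rose and 2 fell in breast BrM. Without the CD31 libraries over 100 CPM of Krt8, 40 members rose and 30 fell in breast BrM, beside 2872 and 2038 of all genes. Of these members 34 and 26 were among the 43 and 28. In lung BrM the members' counts became 39 and 29, with 34 and 19 shared, beside 2517 and 2003 of all genes.

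By class, carriers for amino acids and peptides had the highest number of rises, 9 of 26 (34.6%) in breast BrM with 2 that fell, and 10 (38.5%) and 3 in lung BrM, with class medians of 0.67 and 0.69. Both called nucleoside and nucleobase carriers of 6 tested rose in each tumor. Zinc, copper and other metal carriers went both ways, 4 up and 3 down of 20 in breast BrM and 8 up (40%) and 3 down in lung BrM. Vitamin, choline and heme carriers were called lower more often than higher, 5 against 3 of 14 in breast BrM and 6 against 2 in lung BrM. Their class medians were 0.27 and -0.05. Carboxylate and fatty acid carriers had the lowest median among the classes with 10 or more members tested, -1.33 and -0.84, with 4 of 10 and 2 of 10 that fell. None of the 5 neurotransmitter and osmolyte carriers tested was called in either tumor.

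**Figure D2:**
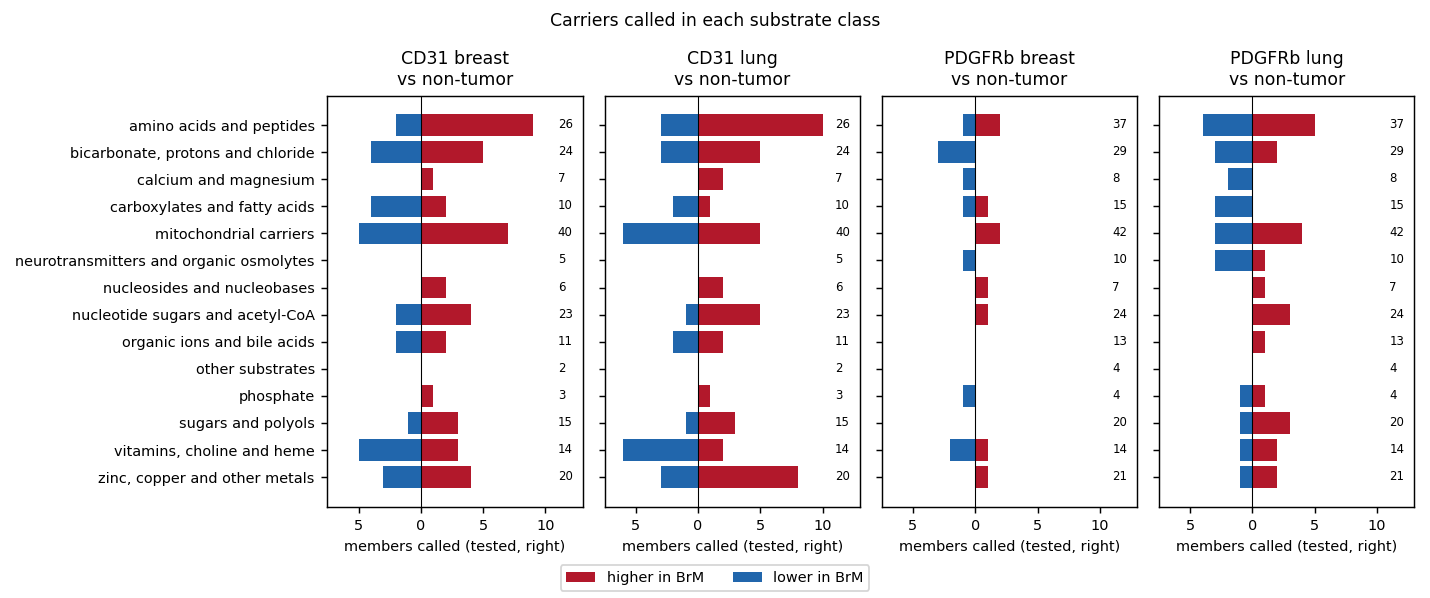
Members called higher (red, right) and lower (blue, left) in BrM in each substrate class, in 4 comparisons with the non-tumor libraries of the same sort; the number at the right of each bar is how many members were tested. In the CD31 sort of breast BrM amino acid carriers show 9 rises and 2 falls, and the PDGFRb sort of breast BrM has the fewest calls.

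Slc1a1, which was higher in CD31 than in PDGFRb cells of non-tumor brain, fell in both tumors. It measured 692, 489, 644, 550 and 521 CPM in non-tumor brain, 114, 176, 116, 121 and 106 CPM in breast BrM and 116, 29.3, 209, 142 and 33.7 CPM in lung BrM. Every tumor library lay below every control, and within lung BrM the level differed by several fold between mice. The differences were -2.19 ± 0.42 (adjusted p = 0.00089) in breast BrM and -2.44 ± 0.43 (adjusted p = 0.00036) in lung BrM. The zinc importer Slc39a10 measured 777, 955, 817, 982 and 953 CPM in non-tumor brain, 229, 200, 144, 169 and 153 CPM in breast BrM and 216, 55.0, 372, 273 and 284 CPM in lung BrM. Its groups did not overlap either, and it fell in both tumors (log2 differences of -2.32 ± 0.34, adjusted p = 7.7e-05, and -1.89 ± 0.33, adjusted p = 0.00039).

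The monocarboxylate family member Slc16a4 measured 279, 333, 253, 335 and 325 CPM in controls, 77.0, 38, 80.0, 68.5 and 77.1 CPM in breast BrM and 69.5, 33.6, 122, 87.4 and 66.6 CPM in lung BrM. It fell in both tumors (log2 differences of -2.16 ± 0.28, adjusted p = 2.3e-05, and -1.99 ± 0.28, adjusted p = 4.4e-05). The largest fall in either tumor was that of Slc26a10, a member of the anion exchanger family. It measured 269, 197, 341, 152 and 192 CPM in controls, 9.63, 2.67, 0.735, 1.80 and 1.59 CPM in breast BrM and 20.2, 0, 1.40, 8.99 and 0 CPM in lung BrM. The lowest control thus stood far above the highest tumor library, and it fell in both tumors (log2 differences of -6.11 ± 1.1, adjusted p = 0.00061, and -5.19 ± 1.1, adjusted p = 0.0014). The sodium-proton exchanger Slc9a2 measured 42.2, 34.6, 35.8, 38.8 and 40 CPM in controls and at most 3.99 CPM in any of the 10 tumor libraries. It fell in both tumors (log2 differences of -5.10 ± 0.87, adjusted p = 0.0003, and -4.29 ± 0.83, adjusted p = 0.00083).

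**Figure D3:**
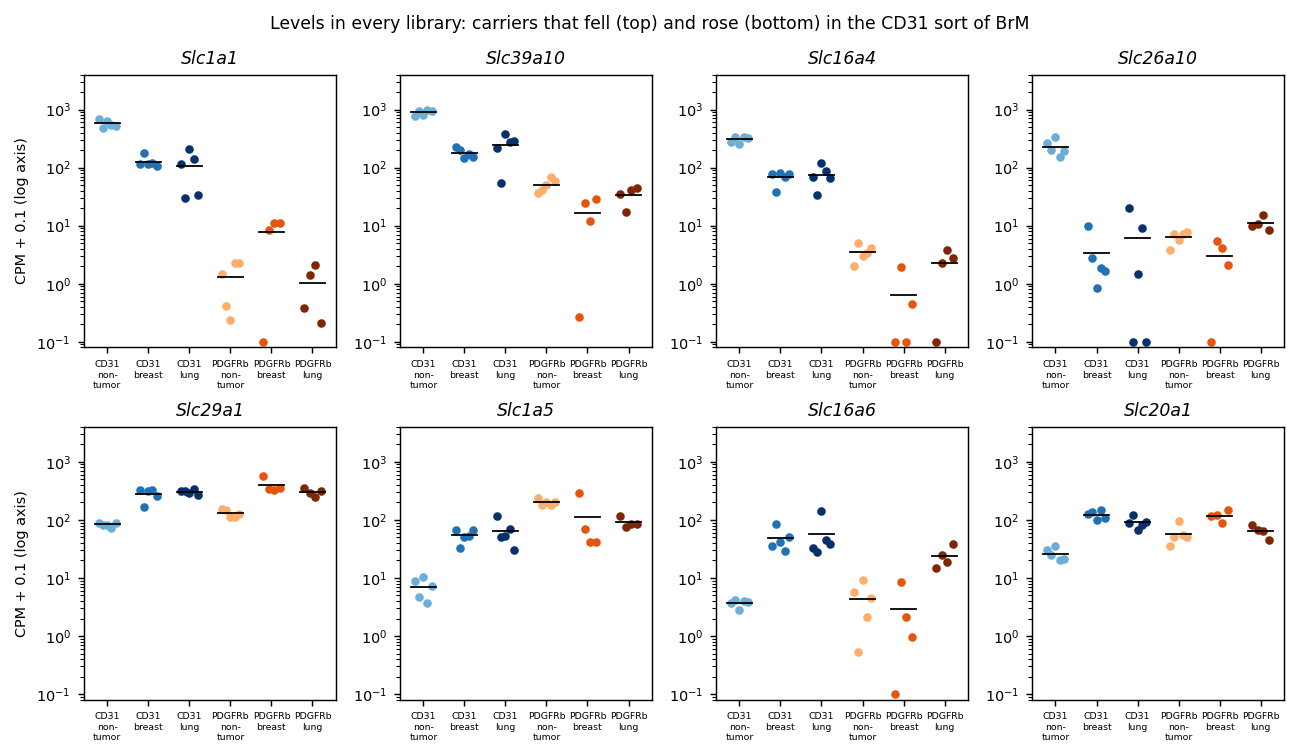
Levels of 8 carriers in every library (CPM plus 0.1, log axis), in the 6 groups of sort by state; each point is 1 library and each bar the group's mean. In the CD31 sort Slc1a1, Slc39a10, Slc16a4 and Slc26a10 (top) are lower and Slc29a1, Slc1a5, Slc16a6 and Slc20a1 (bottom) higher in BrM, with no overlap between tumor and control libraries.

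Among the vitamin carriers, Slc52a3, Slc5a6 and Slc44a5 fell in both tumors. The riboflavin carrier Slc52a3 measured 364, 193, 428, 197 and 320 CPM in controls, 126, 48.5, 66.1, 65.4 and 80.7 CPM in breast BrM and 150, 113, 183, 147 and 113 CPM in lung BrM. It fell in both tumors (log2 differences of -1.96 ± 0.27, adjusted p = 5.2e-05, and -1.08 ± 0.27, adjusted p = 0.0051). The biotin and pantothenate carrier Slc5a6 went from 75.9 ± 16 CPM (SD, n = 5) to 17.7 ± 4.92 and 18.6 ± 8.67 CPM (SD, n = 5 each) and fell by 2.10 ± 0.34 (adjusted p = 0.0002) in breast BrM. The choline carrier-like Slc44a5, at 10.4 ± 0.786 CPM (SD, n = 5) in controls, had means of 0.553 and 0.318 CPM in the tumors (adjusted p = 0.0055 and 0.0021). Summed over the class in FPKM, vitamin, choline and heme carriers stood at 485 ± 59.8 in controls, 362 ± 36.8 in breast BrM and 326 ± 60.3 in lung BrM (SD, n = 5 each). The choline carrier Slc44a1, a preset member, was not called, with means of 94.2, 132 and 102 CPM (adjusted p = 0.1 and 0.7). The ascorbate carrier Slc23a2 of the same class rose from 109 ± 12.3 to 242 ± 66.1 and 232 ± 39.3 CPM (SD, n = 5 each), by 1.15 ± 0.18 (adjusted p = 0.00016) and 1.09 ± 0.18 (adjusted p = 0.00025).

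Slc35f2 measured 328, 370, 316, 367 and 336 CPM in controls, 108, 66.7, 79.2, 69.4 and 63.3 CPM in breast BrM and 126, 87.0, 194, 139 and 230 CPM in lung BrM. It fell in both tumors (log2 differences of -2.14 ± 0.23, adjusted p = 2.9e-06, and -1.14 ± 0.22, adjusted p = 0.0008). The sugar carrier Slc50a1 went from 248 ± 22.3 to 113 ± 24.0 and 160 ± 18.6 CPM (SD, n = 5 each) and fell in both tumors (log2 differences of -1.12 ± 0.15, adjusted p = 3.1e-05, and -0.63 ± 0.15, adjusted p = 0.0037). Its lung BrM call was lost in 3 of 20 alternatives, among them without the libraries over 100 CPM of Krt8. The fatty acid carrier Slc27a1 went from 41.9 ± 4.21 to 16.8 ± 9.28 and 19.9 ± 6.87 CPM (SD, n = 5 each) and fell in both tumors (log2 differences of -1.32 ± 0.34, adjusted p = 0.0075, and -1.07 ± 0.34, adjusted p = 0.023). For Slc27a1 the lung BrM call was lost in 6 of 20 alternatives, among them without the libraries over 100 CPM of Krt8. The low-level members Slc9b2 and Slc16a11 fell in breast BrM (-3.97, adjusted p = 0.021, and -3.27, adjusted p = 0.0088) from means of 5.02 and 5.52 CPM. In lung BrM the carnitine carrier Slc22a5 fell by 2.01, from 67.8 to 16.6 CPM (adjusted p = 0.015), and the mitochondrial carrier Slc25a35 fell by 2.7, from 19 to 2.88 CPM (adjusted p = 0.031, lost in 7 of 20 alternatives). In breast BrM Slc22a5 had a mean of 25.1 CPM and was not called (adjusted p = 0.075).

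The metal carriers held the promoter gene Slc30a1. The zinc exporter measured 187, 245, 170, 260 and 253 CPM in controls, 65.3, 368, 81.3, 40.4 and 52.4 CPM in breast BrM and 54.7, 96.9, 103, 115 and 69.2 CPM in lung BrM. In breast BrM 4 libraries were below every control and mouse 52599 was above all of them, and the difference was -0.86 ± 0.48 (adjusted p = 0.2). In lung BrM all 5 were below, and it fell by 1.34 ± 0.48 (adjusted p = 0.042), a call lost in 16 of 20 alternatives, with adjusted p of 0.014 to 0.28. The metallothioneins Mt1 and Mt2, zinc-binding proteins that MTF-1 also controls and that were picked after their values were seen, were measured in the same breast libraries at 65.7, 266, 39.3, 114 and 21.3 CPM and at 5.42, 68.1, 3.79, 7.38 and 2.64 CPM. Mouse 52599 was the highest library for both, as for Slc30a1. The other libraries did not keep the same order. Breast mouse 53072 had the next highest Mt1, at 114 CPM, and the lowest Slc30a1, at 40.4 CPM. In lung BrM Slc30a1 was highest in pool 55169-70, at 115 CPM, where Mt1 and Mt2 were lowest, at 44.7 and 7.21 CPM. In controls Mt1 and Mt2 ranged from 191 to 355 and from 37.4 to 65.2 CPM.

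The copper importer Slc31a1 measured 388, 361, 438, 404 and 427 CPM in controls, 231, 226, 161, 193 and 205 CPM in breast BrM and 229, 172, 356, 246 and 163 CPM in lung BrM, and fell in both tumors (log2 differences of -0.98 ± 0.19, adjusted p = 0.00092, and -0.78, adjusted p = 0.0045). Other zinc carriers rose. Slc39a7, which releases zinc from the endoplasmic reticulum, had means of 121, 210 and 240 CPM and rose by 0.80 (adjusted p = 0.0011) and by 1.0 (adjusted p = 0.00016). Slc39a1 had means of 17.8, 54.3 and 65.8 CPM and rose by 1.62 (adjusted p = 0.00077) and by 1.89 (adjusted p = 0.0002). The cytokine-inducible importer Slc39a14 had means of 2.39, 9.91 and 11.3 CPM and rose by 2.05 (adjusted p = 0.0053) and by 2.25 (adjusted p = 0.0026). Slc39a8 was not called, with 214 ± 22, 185 ± 28.6 and 216 ± 113 CPM (SD, n = 5 each) and adjusted p of 0.6 and 0.95.

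Among the rises, the nucleoside carrier Slc29a1 (ENT1), which clears extracellular adenosine, was called with the lowest adjusted p in breast BrM after Slc20a1. It measured 89.7, 82.4, 83.1, 73.0 and 88.4 CPM in controls, 324, 169, 319, 325 and 258 CPM in breast BrM and 319, 309, 285, 338 and 265 CPM in lung BrM. It rose by 1.75 ± 0.17 (adjusted p = 9.8e-07) and by 1.87 ± 0.17 (adjusted p = 5.1e-07), and the call held in all 20 alternatives of each comparison. The nucleobase carrier Slc43a3, named after its values were seen, measured 19.6, 11.8, 14.5, 16.7 and 20.1 CPM in controls, 158, 67.3, 198, 90.4 and 166 CPM in breast BrM and 89.3, 73.8, 80.4, 228 and 160 CPM in lung BrM. It rose by 3.05 ± 0.36 (adjusted p = 9.7e-06) and by 2.94 ± 0.36 (adjusted p = 1.2e-05), also in all 20 alternatives. The class sum was 74.3 ± 3.88 FPKM in controls, 254 ± 73.8 in breast BrM and 260 ± 46.1 in lung BrM (SD, n = 5 each).

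Slc1a5, the glutamine carrier ASCT2 of growing cells, measured 8.73, 4.58, 10.1, 3.57 and 7.08 CPM in controls, 65.6, 33.2, 51.3, 53.2 and 67.5 CPM in breast BrM and 115, 51.0, 51.7, 69.7 and 30.6 CPM in lung BrM. It rose by 2.99 ± 0.37 (adjusted p = 1.5e-05) and by 3.24 ± 0.37 (adjusted p = 6.9e-06). Its relative Slc1a4 went from 6.99 ± 1.64 to 20.5 ± 6.82 and 24.3 ± 13.3 CPM (SD, n = 5 each), a rise of 1.56 (adjusted p = 0.0098) and 1.81 (adjusted p = 0.0035). The Slc1a4 calls were lost in 3 and 2 of 20 alternatives, in lung BrM also without the libraries over 100 CPM of Krt8. Their sign changed under the cell type label of mouse 54135. Slc7a7, a light chain for cationic amino acid exchange known from macrophages and epithelia and named after its values were seen, measured 16.8, 13.1, 15.1, 13 and 15.0 CPM in controls, 64.9, 60.3, 60.7, 43.4 and 92.6 CPM in breast BrM and 76.9, 143, 70.6, 101 and 91.4 CPM in lung BrM. It rose by 2.15 ± 0.22 (adjusted p = 2.2e-06) and by 2.73 ± 0.23 (adjusted p = 2.4e-07). For Slc1a5 and Slc7a7 every tumor library lay above every control.

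Slc43a1, the leucine carrier LAT3, was nearly unread in controls, at 0.0526, 0, 0, 0.0575 and 0 CPM, and measured 9.82, 2.67, 8.20, 7.75 and 14.8 CPM in breast BrM and 6.57, 0.247, 3.29, 8.71 and 0 CPM in lung BrM. The controls held 2 counts in all, giving a ratio of 437 (95% counting interval 120 to 3610) in breast BrM and 193 (53.1 to 1600) in lung BrM, where 1 library had no counts. Both intervals leave out the spread between mice. Slc15a3, a lysosomal histidine and peptide carrier of immune cells, had means of 0.509, 10.6 and 3.02 CPM and rose by 4.37 ± 0.76 (adjusted p = 0.00036) and by 2.57 ± 0.71 (adjusted p = 0.01). Of 5 immune markers 2 rose in breast and 3 in lung BrM, and their part was not tested. The amino acid carrier Slc38a2 rose in breast BrM, from 208 ± 42.5 to 342 ± 77.3 CPM (SD, n = 5 each), by 0.73 (adjusted p = 0.018), and was at 295 ± 83.1 CPM in lung BrM (adjusted p = 0.072). The cystine carrier Slc7a11 was low in all CD31 groups, with means of 1.47, 2.82 and 1.81 CPM, and not called (adjusted p = 0.59 and 0.85).

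Of 24 carriers of bicarbonate, protons and chloride 5 rose and 4 fell in breast BrM and 5 rose and 3 fell in lung BrM, and 1 of 3 phosphate carriers rose in each. Slc12a2, the sodium-potassium-chloride cotransporter NKCC1 that drives fluid entry across the barrier, measured 17.5, 21.6, 22.8, 17.4 and 23.9 CPM in controls, 87.7, 130, 66.1, 156 and 74.5 CPM in breast BrM and 89.7, 126, 77.0, 69.7 and 47.3 CPM in lung BrM. It rose by 2.32 ± 0.27 (adjusted p = 8.9e-06) and by 2.00 (adjusted p = 3.4e-05). The potassium-chloride cotransporter Slc12a7 had means of 92.2, 180 and 169 CPM and rose by 0.97 ± 0.15 (adjusted p = 0.00012) and by 0.88 ± 0.15 (adjusted p = 0.00024). Slc20a1, whose promoter is printed above, measured 30.2, 24.3, 35.2, 20.0 and 21.0 CPM in controls, 126, 134, 98.0, 149 and 109 CPM in breast BrM and 89.7, 123, 67.7, 80.7 and 91.0 CPM in lung BrM. It rose by 2.24 ± 0.20 (adjusted p = 5.2e-07) and by 1.79 ± 0.20 (adjusted p = 4.1e-06), with every tumor library above every control.

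The monocarboxylate family member Slc16a6, a carrier linked to ketone body export, measured 3.57, 4.15, 2.74, 3.91 and 3.74 CPM in controls, 35.9, 86.4, 41.5, 29.5 and 50.4 CPM in breast BrM and 33.0, 28.2, 140, 45.7 and 38.7 CPM in lung BrM. It rose by 3.76 ± 0.45 (adjusted p = 1.1e-05) and by 3.99 ± 0.45 (adjusted p = 6e-06), against the fall of its relative Slc16a4. Slc45a4, of a family of proton-coupled carriers, measured 4.05, 9.22, 3.63, 5.58 and 5.19 CPM in controls, 37.4, 73.0, 101, 44.5 and 99.9 CPM in breast BrM and 57.8, 107, 23.1, 27.4 and 107 CPM in lung BrM. It rose by 3.70 ± 0.47 (adjusted p = 2.1e-05) and by 3.54 ± 0.47 (adjusted p = 2.8e-05). Other rises came from low control levels: the magnesium carrier Slc41a2 from 0.185 to 3.98 and 5.23 CPM (adjusted p = 0.032, lost in 11 of 20 alternatives, and 0.02), Slc22a23 from 3.38 to 16.5 and 13.7 CPM (adjusted p = 0.012 and 0.021), the steroid sulfate carrier Slc10a6 from 0.172 to 2.24 and 6.20 CPM (adjusted p = 0.021 and 0.0032), and the bicarbonate carrier Slc4a8 from 0.239 to 6.53 CPM in lung BrM (adjusted p = 0.0026).

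Mitochondrial carriers were called in both directions. In breast BrM 7 of 40 rose (17.5%) and 5 fell (12.5%), beside 18.6% and 11.4% of all genes. In lung BrM 5 rose (12.5%) and 6 fell (15.0%), beside 20.4% and 14.5% of all genes. The class medians were -0.14 and -0.08. The carriers that serve ATP synthesis rose by small amounts. Slc25a5 went from 579 ± 52.6 to 893 ± 215 and 890 ± 118 CPM (SD, n = 5 each), by 0.63 in each tumor (adjusted p = 0.0093 and 0.0084). Slc25a3 went from 354 ± 19.6 to 533 ± 91.9 and 555 ± 78.2 CPM (SD, n = 5 each), by 0.60 (adjusted p = 0.0046) and by 0.65 (adjusted p = 0.0022), and Slc25a4 rose by 0.42 (adjusted p = 0.028) and by 0.39 (adjusted p = 0.038). The Slc25a4 calls were lost in 9 and 11 of 20 alternatives, among them single libraries left out and the cell type label of mouse 54135 (values of 0.01 and -0.01). The Slc25a5 calls were lost in 4 and 2 of 20, each with the date as a covariate and in 1 fit of all groups. In breast BrM the Slc25a5 call was also lost without the libraries over 100 CPM of Krt8. Slc25a39, the mitochondrial glutathione carrier, named for this sort after its values were seen, went from 77.3 ± 7.51 to 258 ± 55.0 and 251 ± 50 CPM (SD, n = 5 each), by 1.74 ± 0.17 (adjusted p = 1.4e-06) and by 1.71 (adjusted p = 1.8e-06). In FPKM, mitochondrial carriers made up 32.6% of all members' sum in controls, 43.2% in breast BrM and 41.6% in lung BrM.

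Some rises went with the epithelial signal. The monocarboxylate carrier Slc5a8 measured 12, 1.18, 3.34, 33.0 and 3.19 CPM in the CD31 libraries of breast BrM, highest in mice 53072 and 51950, the 2 libraries with over 100 CPM of Krt8, and 0, 17.1, 16.6 and 35.4 CPM in the PDGFRb libraries. The folate carrier Slc46a1 measured 24.4, 0.784, 13.7, 55.1 and 5.38 CPM, the glucose carrier family member Slc5a9 9.16, 3.69, 3.28, 20.7 and 4.93 CPM, and Slc7a4 11.6, 2.35, 2.38, 25.7 and 1.49 CPM. All 4 were highest in the same pair of mice. The breast BrM calls of Slc5a9 and Slc7a4 were lost in 7 and 3 of 20 alternatives. Slc39a4, the zinc importer of gut epithelium, measured 327, 69.0, 58.5, 3.55 and 8.57 CPM in CD31 libraries of lung BrM, the 3 highest being those over 100 CPM of Krt8, and 334, 214, 339 and 483 CPM in the PDGFRb libraries. Krt8 itself was 2.43 times as high in the PDGFRb as in the CD31 libraries of breast BrM (means of 686 and 282 CPM) and 9.30 times in lung BrM (2930 and 315 CPM). Of the 43 rises in breast BrM, 22 members were lower in the PDGFRb libraries of breast BrM than in the CD31 libraries, and 18 were higher there by at least 0.5 of the Krt8 ratio. Of the 46 rises in lung BrM, 28 were lower in the PDGFRb libraries and 3 (Slc7a4, Slc44a3 and Slc35g1) reached 0.5 of the ratio. Slc39a4, at 3.67 times its CD31 mean, did not reach it. The PDGFRb means also hold the level of that sort without tumor, so these counts cannot tell epithelial from vascular rises. The part of epithelial RNA in the rises was not tested gene by gene.

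The tumors were compared with each other in the CD31 sort, which asks whether the vessels differ by primary origin. Of 206 members 2 were higher and 2 lower in lung than in breast BrM (0.971% each), beside 0.578% and 1.55% (2.13% in all) of all genes. The groups did not overlap for 1.06% of all genes upward and 3.23% downward. Slc35f2 was higher by 1.0 ± 0.22 (adjusted p = 0.023), although the groups overlapped, and by 1.40 (adjusted p = 0.02) without the libraries over 100 CPM of Krt8. Slc39a4 was higher by 5.18 ± 1.0 (adjusted p = 0.011), Slc46a1 was lower by 3.96 ± 0.99 (adjusted p = 0.046), and Slc5a8, with no counts in the lung BrM libraries, at least 269-fold lower when set against 3 counts over the group (adjusted p = 0.011). Without the libraries over 100 CPM of Krt8, which leaves 2 of lung and 3 of breast BrM, these 3 were not called (adjusted p = 0.35, 0.25 and 0.12). Slc39a4 was then at 1.72 and Slc46a1 at -3.11, and Slc5a8 measured 1.18, 3.34 and 3.19 CPM in the breast libraries kept, against no counts in those of lung BrM. No date holds both tumors, so origin and date cannot be told apart here. With the date as a covariate no gene was called by edgeR, members included, and 12 members had an unadjusted p under 0.05.

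In the PDGFRb sort, breast BrM gave few calls. Of 248 members tested, 9 (3.63%) rose and 10 (4.03%) fell, beside 6.3% and 2.69% (8.99% in all) of all 17028 genes tested, with medians of -0.22 and -0.16. Groups did not overlap for 6.05% of all genes upward and 12.3% downward. Without mouse 51950, 33 members rose and 27 fell, of which 6 and 10 were among the 9 and 10, and the calls over all genes went from 1073 and 458 to 2050 and 1239. With the date as a covariate 1 member rose and none fell, beside 89 and 26 of all genes, while 35 members had an unadjusted p under 0.05. Epithelial markers summed to 5.36 to 57.1 CPM in controls and to 870 to 3380 CPM in breast BrM, and 3 of 5 neuron markers were called lower. Fibroblast markers summed to 962 to 6750 CPM in breast BrM, and 1 of 5 was called higher.

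Slc29a1 was the member called with the lowest adjusted p. It measured 154, 146, 110, 113 and 128 CPM in controls and 562, 338, 324 and 359 CPM in breast BrM, and rose by 1.67 ± 0.21 (adjusted p = 0.00043). All 4 tumor libraries were above every control, and the call held in all 18 alternatives. Slc25a39 went from 107 ± 16.6 (SD, n = 5) to 281 ± 73.8 CPM (SD, n = 4) and rose by 1.47 ± 0.23 (adjusted p = 0.0018). Slc35e4, an orphan member of the nucleotide sugar family, went from 43.6 ± 13 (SD, n = 5) to 118 ± 48.0 CPM (SD, n = 4) and rose by 1.51 ± 0.32 (adjusted p = 0.01). The calls of the glutamate carrier Slc1a6 and the mitochondrial iron carrier Slc25a37 rested on mouse 51950. They measured 135, 0.539, 2.18 and 1.63 CPM and 285, 21.3, 18.7 and 20.3 CPM, and without that mouse the differences were 3.98 (adjusted p = 0.091) and 0.50 (adjusted p = 0.16).

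Among the falls, Slc19a1 measured 1190, 1340, 859, 1570 and 1290 CPM in controls and 329, 185, 295 and 82.3 CPM in breast BrM. The groups did not overlap, and it fell by 2.42 ± 0.58 (adjusted p = 0.021). The call was lost without mouse 52599 (adjusted p = 0.055), without mouse 53072 (adjusted p = 0.056) and with the date as a covariate (adjusted p = 0.1). The phosphate carrier Slc20a2 measured 138, 135, 111, 92.7 and 150 CPM in controls and 26.9, 42.6, 39 and 54.9 CPM in breast BrM and fell by 1.54 ± 0.33 (adjusted p = 0.012). The chloride-bicarbonate exchanger Slc4a3 measured 203, 99.5, 81.8, 62.6 and 126 CPM in controls and 0.169, 11.9, 11.8 and 12.6 CPM in breast BrM and fell by 3.55 ± 0.84 (adjusted p = 0.019). Neither gene's groups overlapped. The fatty acid carrier Slc27a1 measured 53.3, 50.9, 334, 187 and 228 CPM in controls and 38.7 ± 9.19 CPM (SD, n = 4) in breast BrM and fell by 2.06 ± 0.52 (adjusted p = 0.026). The calcium exchanger Slc24a3 fell by 4.43 ± 1.2, from 19.2 to 0.808 CPM (adjusted p = 0.041). The Slc27a1 call was lost in 9 and the Slc24a3 call in 11 of 18 alternatives, the latter without any 1 control.

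Other falls were of genes whose control levels varied with astrocyte and neuron markers. Slc7a10 measured 5.95, 32.9, 214, 105 and 135 CPM in controls and at most 2.34 CPM in breast BrM (adjusted p = 0.016). The sodium bicarbonate cotransporter Slc4a4 measured 6.80, 25.7, 79.7, 48.3 and 65.1 CPM in controls with a mean of 4.54 CPM in breast BrM (adjusted p = 0.045, lost in 9 of 18 alternatives). Both were lowest in mouse 53680 and highest in mouse 54135, as the astrocyte marker sum was. Astrocyte markers summed to 150 to 2280 CPM in controls and to 301 to 710 CPM in breast BrM. Of these 5 markers 1 (Gfap) was called higher and none lower. Their part in these falls was not tested. Several carriers that were high in the control PDGFRb cells had low levels in most breast BrM libraries without being called. Slc6a13 measured 0, 46.6, 9.02 and 14 CPM (adjusted p = 0.21), Slc5a5 1.53, 15.0, 2.01 and 17.6 CPM (adjusted p = 0.17), Slc2a4 111, 12.9, 5.60 and 6.87 CPM (adjusted p = 0.23) and Slc38a11 158, 60.9, 66.7 and 29.0 CPM (adjusted p = 0.21). The 111 CPM of Slc2a4, in mouse 51950, lay within the range of the controls. Without mouse 51950 Slc2a4 passed the threshold, at -3.87 (adjusted p = 0.0092).

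In the PDGFRb sort of lung BrM, 25 of 248 members (10.1%) rose and 22 (8.87%) fell, beside 9.91% and 7.58% (17.5% in all) of all genes, with medians of -0.22 and -0.03, against the same controls as above. Groups did not overlap for 16.4% of all genes upward and 20.1% downward. Without the 3 libraries under 100 CPM of Pdgfrb, none was called by edgeR in either direction, 31 members had an unadjusted p under 0.05, and the single library left is assumed to vary like the other groups. With the date as a covariate 3 rose and 4 fell, beside 273 and 305 of all genes. The lung libraries that share a date with controls, 54957 and 56195-56520, are among the 3 under 100 CPM of Pdgfrb. Mural markers summed to 252 to 8280 CPM, with 6 of 8 called lower, and epithelial markers to 5730 to 9360 CPM, with 5 of 6 called higher. Fibroblast markers summed to 92.6 to 1610 CPM. The values below therefore describe a sort in which most libraries carry few mural reads.

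The largest rises were of carriers known from gut, kidney and liver epithelium. Slc39a4 measured 334, 214, 339 and 483 CPM against a mean of 1.83 CPM in controls, a rise of 7.74 ± 1.2 (adjusted p = 0.00082). Slc17a4, an organic anion carrier, measured 22.2, 48.4, 82.5 and 79.6 CPM (adjusted p = 0.0015), and Slc3a1 and Slc7a9, which together carry cystine in the kidney, 29.2, 40, 62.1 and 82.7 CPM (adjusted p = 0.0034) and 3.64 to 11.8 CPM (adjusted p = 0.019). The thiamine pyrophosphate carrier Slc44a4 measured 23.9, 12.2, 24.9 and 56.7 CPM (adjusted p = 0.0024). The sulfate carrier Slc26a2 went from a mean of 40.6 CPM to 160, 363, 391 and 339 CPM (adjusted p = 0.015), and Slc22a18 from 1.36 to 41.8 CPM (adjusted p = 0.0078). Slc35a4 rose by 0.65 (adjusted p = 0.019) and Slc50a1 by 0.85 ± 0.26 (adjusted p = 0.039), calls that were lost in 12 and 15 of 19 alternatives, many of them single libraries left out. Slc29a1 measured 351, 293, 246 and 310 CPM and rose by 1.40 ± 0.21 (adjusted p = 0.00056), and by 1.55 with the single library kept (adjusted p = 0.066).

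Carriers that were high in the control PDGFRb cells were low in the 3 libraries under 100 CPM of Pdgfrb. Slc19a1 measured 169, 16.9, 37.3 and 29.8 CPM in lung BrM and fell by 4.15 ± 0.64 (adjusted p = 0.00074). Slc38a11 measured 32.3, 0.555, 0.105 and 1.65 CPM and fell by 5.35 (adjusted p = 0.011). Slc30a10 measured 38.4, 0.971, 0.263 and 0.495 CPM and fell by 4.18 (adjusted p = 0.032, lost in 12 of 18 alternatives). Mouse 51435, the library with 436 CPM of Pdgfrb, was the highest for all 3, and there too each was below every control. Falls were also called for Slc2a4 (-4.54, adjusted p = 0.01), the sodium-calcium exchanger Slc8a1 (-5.90, adjusted p = 0.0055), Slc20a2 (-1.01 ± 0.33, adjusted p = 0.047, lost in 14 of 19 alternatives) and the dicarboxylate carrier Slc13a3 (-5.48, adjusted p = 0.015). Slc26a7 had no counts and was at least 165-fold lower when set against 3 counts over the group. The glial and neuronal carriers Slc7a10, Slc25a18 and Slc4a10 fell too, with adjusted p of 0.0077, 0.027 (lost in 9 of 19 alternatives) and 0.016, beside 3 of 5 astrocyte and 3 of 5 neuron markers called lower.

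Whether breast BrM changed the sorts unequally was tested as the PDGFRb change minus the CD31 change, in 1 fit of all 6 groups. Of 260 members 5 (1.92%) had a higher and 14 (5.38%) a lower value, beside 2.35% and 3.57% (5.93% in all) of all genes, with medians of -0.44 and -0.27. With the mouse as a block, which pairs the sorts of 1 animal, the counts were 1 and 6, beside 142 and 188 of all genes. Slc1a1, which fell in CD31 cells, was at 4.93 (adjusted p = 0.0039, 0.067 with the block). Its PDGFRb level was 1.22 ± 0.961 CPM (SD, n = 5) in controls and 0, 8.30, 11.2 and 11 CPM in breast BrM. Slc26a10 was at 5.12 (adjusted p = 0.025, 0.2 with the block) and Slc31a1 at 1.56 (adjusted p = 0.0042, 0.037 with the block). Slc50a1 was at 0.97 (adjusted p = 0.037, 0.14 with the block).

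Among the lower values, Slc1a5 was at -3.79 (adjusted p = 0.00042, 0.0011 with the block). It rose in CD31 cells, while in PDGFRb cells it went from 201 ± 24.4 CPM (SD, n = 5) to 291, 69.3, 41.2 and 41.9 CPM, which was not called (adjusted p = 0.33). Without mouse 51950, the library at 291 CPM, it fell by 1.93 (adjusted p = 0.00019), and it was also called by limma-voom. Slc12a2 was at -1.69 (adjusted p = 0.007, 0.025 with the block) with PDGFRb means of 215 and 315 CPM, Slc45a4 at -4.87 (adjusted p = 0.0034, 0.043 with the block) and Slc20a2 at -2.17 (adjusted p = 0.017, 0.033 with the block). Slc19a1 was at -4.38 ± 1.0 (adjusted p = 0.0088), which missed the threshold with the block (adjusted p = 0.076). Slc29a1, which rose in both sorts, had a difference of -0.07 ± 0.27 (adjusted p = 0.97), an estimate that does not show equality.

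Genes that work with carriers were read from lists, beside 18.6% of all genes that rose and 11.4% that fell in CD31 cells of breast BrM and 20.4% and 14.5% in those of lung BrM. Of the sodium pump subunits, which set the sodium gradient for many members, 4 of 10 rose and none fell in CD31 cells of breast BrM, among them Atp1b1, and 5 rose and 1 fell in lung BrM. Of the chaperones and regulators of carriers, 1 of 14 rose and 4 fell in breast BrM and 1 rose and 2 fell in lung BrM. Bsg, the partner of monocarboxylate carriers, fell from 19600 to 1790 CPM in breast BrM (-3.45 ± 0.28, adjusted p = 1.8e-07) and to 3190 CPM in lung BrM (-2.61 ± 0.27, adjusted p = 2e-06). Of 10 carbonic anhydrases 4 rose and 2 fell in breast BrM and 2 rose and 2 fell in lung BrM. Car9, the classic hypoxia-induced member, had no counts in control CD31 cells and means of 3.32 and 7.06 CPM in the tumors. Of the carriers set aside, 1 of 17 rose and 10 fell in CD31 cells of breast BrM, and 2 rose and 9 fell in lung BrM.

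Some preset members, textbook carriers of other cells, gave few or no calls. The vesicular carriers of neurons Slc17a7 and Slc32a1 were near 0 and too low to test. Slc34a2, Slc29a4 and Slc2a12 were not called in any comparison. The glycine carrier Slc6a9 had a mean of 48.7 ± 10.1 CPM (SD, n = 5) in control PDGFRb cells and means of 5.25 CPM in breast BrM (adjusted p = 0.052) and 5.23 CPM in lung BrM (adjusted p = 0.037, lost in 12 of 19 alternatives). The metal carrier of phagocytes Slc11a1 measured 51.0, 73.6, 12.5, 22.4 and 34.3 CPM in control PDGFRb cells, and 7.63 and 3.62 CPM on average in the tumors (adjusted p = 0.28 and 0.1).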

How the data were processed

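Endothelial and mural cells were sorted from mouse brain and 28 SMART-Seq libraries, which do not mark strand, were sequenced. The submitters' processing notes list, with no role or order, limma (3.50.3), STAR (2.7.9a), edgeR (3.36.0) and RSEM (1.3.3), with the build mm10. The authors deposited an expected count (an estimated count that need not be whole) and an FPKM value per gene and library. They also deposited log2 normalized counts for each sort, per the file headers. The log2 tables carry symbols and the counts carry gene IDs. Symbols were given to the IDs from a reference list of gene names, with RefSeq synonyms for members not found there. As a check, log2 values computed from the counts were compared with the deposited ones for 18114 symbols. They matched within 0.01 for 99.98% of these in CD31 and 99.99% in PDGFRb. The list named 52093 of 53647 IDs. The 1554 rows without a symbol, 0.182% to 1.573% of each library's counts, stayed in library sizes and tests under their gene IDs. FPKM values were used as deposited, for levels between genes only.

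Estimated counts, 5.25% of them not whole, were rounded and fitted with edgeR 4.0.16 (R 4.3.3; filterByExpr, TMM, robust quasi-likelihood test, Benjamini-Hochberg), 1 fit for each sort and 1 for all 6 groups where sorts were compared. Alternatives were RLE scaling, DESeq2 1.42.0, limma-voom (limma 3.58.1), no filter, a 1 CPM filter, mouse 54135 left out or taken by its cell type label, 1 fit for all groups, the date as a covariate, the mouse as a block, each library left out, the low-Pdgfrb libraries left out and, added after the data were seen, the CD31 libraries over 100 CPM of Krt8 left out. The test was tried on simulated counts first. Same-numbered libraries come from the same mouse or pool, which pairs the sorts, although their deviations correlated by only -0.11 to 0.34 (median 0.00) over 13 pairs, with 3 over 0.1. P-values measure the spread between mice or pools.

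The members, classes and lists were chosen with earlier results of these data known. Members named in the text are, for each comparison, the called members at 5 CPM or more without overlap of groups that rank in the first 5 by rise or by fall, the called member of each class with the highest level, and 31 preset members. Members and genes outside this rule, such as Slc43a3, Slc7a7, Slc38a11 in breast BrM, Slc23a2, Slc39a1, Slc39a7, Slc39a14 and the metallothioneins, were chosen after their values were seen. Some members and list genes are not reported here.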

Additional observations from a re-analysis of the deposited data

Results flagged for a closer look

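In 126 groups of 4 or 5 libraries, 18 had a library far from the rest by Dixon's ratio, where chance gives about 5%. In the PDGFRb sort of breast BrM these were all mouse 51950: Slc1a6 at 135 CPM (others 0.539 to 2.18), Slc25a35 at 154 (27.3 to 30.9), Slc25a37 at 285 (18.7 to 21.3), Slc29a1 at 562 (324 to 359), Slc2a4 at 111 (5.60 to 12.9), Slc4a3 at 0.169 (11.8 to 12.6) and Slc4a8 at 177 (5.43 to 11.4). In the PDGFRb sort of lung BrM they were all mouse 51435, the library with 436 CPM of Pdgfrb: Slc19a1 at 169 CPM (16.9 to 37.3), Slc30a10 at 38.4 (0.263 to 0.971), Slc5a5 at 32.3 (0.139 to 1.10) and Slc6a13 at 46.0 (0 to 0.63).

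In the CD31 sort of breast BrM, mouse 52599 stood apart for Slc16a4 at 38 CPM (68.5 to 80.0) and Slc1a1 at 176 (106 to 121). In the CD31 sort of lung BrM the flagged values were Slc16a6 at 140 CPM in mouse 54957 (28.2 to 45.7), Slc39a4 at 327 in mouse 51435 (3.55 to 69.0), Slc4a8 at 15.5 in mouse 51697 (3.44 to 5.33) and Slc50a1 at 192 in pool 56195-56520 (148 to 158). In non-tumor PDGFRb cells Slc8a1 was at 34.7 CPM in mouse 53680 (14.8 to 19.6).

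The breast BrM change differed between the sorts, by the interaction in edgeR's quasi-likelihood test, for 16 named members, those among the 17 called that reached a mean of 5 CPM in some group. Values are PDGFRb minus CD31 on the log2 scale. They were 4.93 for Slc1a1, 5.12 for Slc26a10, 1.56 for Slc31a1 and 0.97 for Slc50a1. Negative values were -1.69 for Slc12a2, -4.26 for Slc16a6, -4.38 for Slc19a1, -3.58 for Slc1a4, -3.79 for Slc1a5, -2.17 for Slc20a2, -3.28 for Slc22a17, -0.94 for Slc25a3, -1.16 for Slc38a2, -9.39 for Slc43a1, -4.87 for Slc45a4 and -4.94 for Slc4a4. Adjusted p ranged from 0.00042 for Slc1a5 to 0.037 for Slc50a1, and the value of Slc43a1, nearly unread in control CD31 cells, is fitted and no bound. With the mouse as a block, which pairs the sorts, 6 of the 17 were called (Slc12a2, Slc1a5, Slc20a2, Slc31a1, Slc43a1 and Slc45a4) and 11 were not. Among the latter the adjusted p was 0.091 for Slc16a6, 0.14 for Slc1a4, 0.24 for Slc22a17, 0.051 for Slc25a3, 0.081 for Slc38a2 and 0.16 for Slc4a4. Between lung and breast BrM in the CD31 sort the differences were 1.0 for Slc35f2 (adjusted p = 0.023), 5.18 for Slc39a4 (0.011), -3.96 for Slc46a1 (0.046) and -10.47 for Slc5a8 (0.011), a fitted value and no bound.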

How the results depend on the processing

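Of 3943 values, those of the main fit included, 3141 under alternatives kept their direction and their side of the threshold or stayed within 1.5 times. Under alternatives 480 values lost and 27 gained a call, 80 counts moved by more than 1.5 times and 20 values changed sign. Counts of members called (higher and lower, all genes in parentheses for some settings) are given where they moved by more than 1.5 times. The causes were not tested. With mouse 54135 taken by its cell type label the counts were 0 and 0 between the sorts (0 and 0) and 0 and 1 for the interaction (4 and 43). In the CD31 sort they were 22 and 16 in breast BrM (1477 and 913) and 26 and 15 in lung BrM (1809 and 1191). In the PDGFRb sort they were 4 and 2 in breast BrM (518 and 126) and 15 and 4 in lung BrM (1147 and 669). With the date as a covariate they were 21 and 17 in CD31 breast BrM, 16 and 5 in CD31 lung BrM, 0 and 0 between the tumors, 1 and 0 in PDGFRb breast BrM, and 3 and 4 in PDGFRb lung BrM. One fit of all groups gave 28 rises in CD31 lung BrM (2094) and 1 higher between the tumors (116). In the PDGFRb sort it gave 20 and 22 in breast BrM (2010 and 1126) and 40 and 34 in lung BrM (2378 and 2176). DESeq2 gave 8 and 6 between the tumors (315 and 557) and 33 falls in PDGFRb breast BrM (1588). It gave 41 falls in PDGFRb lung BrM (2439), and 12 and 24 for the interaction (636 and 1295). Limma-voom gave 47 falls in CD31 lung BrM (3424), 1 higher between the tumors (98) and 29 falls in PDGFRb breast BrM (1123). No filter gave 1 and 4 between the tumors (106 and 260) and 3 higher for the interaction (281). Without mouse 54135 there were 5 rises in PDGFRb breast BrM (654), 13 falls in PDGFRb lung BrM (982) and 2 higher for the interaction (279). Without the low-Pdgfrb libraries PDGFRb lung BrM gave 0 and 0, and without the CD31 libraries over 100 CPM of Krt8 the tumors gave 1 and 1. The replicate block, which pairs the sorts by mouse, gave 1 and 6 for the interaction (142 and 188). Between the sorts it gave 47 and 24 (2305 and 1580), within 1.5 times of 64 and 30.

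With each library left out in turn, the counts ranged from 54 to 65 and 26 to 30 between the sorts, 39 to 45 and 25 to 28 in CD31 breast BrM, 34 to 55 and 24 to 37 in CD31 lung BrM, 1 to 5 and 1 to 7 between the tumors, 3 to 33 and 6 to 27 in PDGFRb breast BrM, 16 to 24 and 11 to 26 in PDGFRb lung BrM, and 2 to 17 and 12 to 20 for the interaction. The highest PDGFRb breast BrM counts and the 17 came without mouse 51950. PDGFRb breast BrM gave 3 rises without control 56727, 5 without any other control, and 6 falls without 52865, 56727 or 56740. PDGFRb lung BrM gave 16 rises and 12 falls without 56195-56520, 12 falls without 54957 or 55169-70, and 11 to 14 falls without any control. The interaction gave 3 higher without CD31 library 53142 and 2 without PDGFRb control 54135. Between the tumors, libraries 51697, 56195-56520, 51950, 52599, 53072 and 53142 each moved a count.

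Signs changed for members near 0 or under the label of mouse 54135. Under that label Slc1a4 was at -0.72 in CD31 breast and -0.46 in lung BrM, Slc7a11 at -2.47 and -3.09, Slc39a8 at 0.08 in breast, Slc25a4 at -0.01 in lung BrM, and the interaction at 1.51 for Slc19a1 and -2.25 for Slc1a1. In CD31 lung BrM, Slc39a8 was at -0.11 by limma-voom, 0 with no filter, -0.01 without mouse 54135 or its CD31 library, -0.03 in 1 fit of all groups, -0.11 without the Krt8 libraries, and from -0.33 to 0.18 with single libraries left out. Slc7a11 was at -1.75 by limma-voom, -0.15 with the date, -3.96 without the Krt8 libraries, and from -0.63 to 0.64 with single libraries left out. Depth limits members at 0 to a CPM of 0.125 to 0.422 per library.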

Other observations

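Further members of the CD31 sort, picked after their values were seen, fell in both tumors in edgeR's quasi-likelihood test. Slc52a2, a second riboflavin carrier beside Slc52a3, went from 175 ± 21.3 CPM (SD, n = 5) to 59.1 ± 14.5 CPM (breast BrM) and 96.3 ± 28.8 CPM (lung BrM; n = 5 each; -1.56 ± 0.22, adjusted p = 4.6e-05, and -0.85 ± 0.21, adjusted p = 0.0054). Slc25a32, which brings folate or the riboflavin product FAD into mitochondria, went from 78.0 ± 9.81 to 18.5 ± 5.26 and 18.4 ± 10.5 CPM (SD, n = 5 each; -2.07 ± 0.39, adjusted p = 0.00077, and -2.08 ± 0.39, adjusted p = 0.0007). The mitochondrial coenzyme A carrier Slc25a42 went from 29.7 ± 3.83 to 5.68 ± 2.95 and 7.51 ± 3.66 CPM (SD, n = 5 each; adjusted p = 0.00069 and 0.0025). The lysosomal carrier Slc46a3 went from 166 ± 13.2 to 95.8 ± 20.8 and 61.6 ± 15.0 CPM (SD, n = 5 each; adjusted p = 0.004 and 2.9e-05).

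Other members picked in the same way rose in both tumors. The Golgi carrier Slc35c2 rose from 24.2 ± 1.78 to 50.8 ± 13.5 and 47.2 ± 10.4 CPM (SD, n = 5 each; 1.07 ± 0.21, adjusted p = 0.0009, and 0.97 ± 0.21, adjusted p = 0.0018). Slc7a6, a cationic amino acid exchanger and relative of Slc7a7, rose from 14.6 ± 1.31 to 35.6 ± 11.4 and 53.0 ± 16.2 CPM (SD, n = 5 each; 1.3 ± 0.26, adjusted p = 0.0012, and 1.87 ± 0.26, adjusted p = 5.1e-05).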
